A study of Homo sapiens with 6 samples.

Results

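The 36 aminoacyl-tRNA synthetase genes of the human genome were followed through wild strain TPC-1 cells and *RRM2*-OE-TPC-1 cells. They were taken by gene name from the 58735 genes of the deposited table. The 20 cytosolic members are *AARS*, *CARS*, *DARS*, *EPRS*, *FARSA*, *FARSB*, *GARS*, *HARS*, *IARS*, *KARS*, *LARS*, *MARS*, *NARS*, *QARS*, *RARS*, *SARS*, *TARS*, *VARS*, *WARS* and *YARS*. The 16 mitochondrial members carry a name that ends in 2, and *GARS* and *KARS* serve both compartments. TPC-1 is a cell line from a human papillary thyroid carcinoma. One group held 3 libraries of the wild strain, whose genotype label is WT, and the other held 3 libraries of the same line infected with a lentivirus (vector LV18) that expresses *RRM2*, a subunit of ribonucleotide reductase, from a CMV promoter. The infected cells were selected with puromycin, whereas no infection or selection is given for the wild strain, so the effects of *RRM2* and of the vector and its selection cannot be told apart. The genotype label of *RRM2*-OE-TPC-1 replicates 2 and 3 reads RRM3 and RRM4, while their titles give *RRM2*. No source says whether the infected cells were 1 clone.

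An aminoacyl-tRNA synthetase joins an amino acid to its tRNA, which then carries it to the ribosome. Cells of animals keep one set of these enzymes in the cytosol and another for the ribosomes of the mitochondrion, and both sets are encoded in the nucleus. The glycine and lysine enzymes are made for both places from a single gene each, and mitochondrial glutaminyl-tRNA is made by an indirect route. A part of the cytosolic enzymes is held in one multisynthetase complex. Many cytosolic synthetase genes are known targets of the transcription factor ATF4, whose translation rises when the integrated stress response is active.

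ATF4 binds, with partners of the C/EBP family, to elements whose core can be written TGATGNAA, where N is any base. The sequences below show where these letters occur near the start of synthetase genes, because the cytosolic genes are grouped below by their known response to ATF4. RefSeq promoters (GRCh38.p14, 250 bases before to 50 bases after the start) matched 30 of the 36 members. Both strands were searched, so the reverse complement counts as a match, and in the members no match overlaps one of the NRF1 motif given below. The capitals mark the match, each stretch is given on the strand of its gene from 5′ to 3′, and the motif was chosen after the values were seen.
AARS, chr16:70289675-70289704, minus strand: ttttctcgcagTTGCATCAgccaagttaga
CARS, chr11:3057407-3057436, minus strand: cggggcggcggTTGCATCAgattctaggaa
GARS, chr7:30594834-30594863, plus strand: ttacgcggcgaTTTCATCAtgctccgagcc
IARS, chr9:92293692-92293721, minus strand: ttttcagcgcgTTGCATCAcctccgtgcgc
MARS, chr12:57488053-57488082, plus strand: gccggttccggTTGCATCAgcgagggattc
NARS, chr18:57621804-57621833, minus strand: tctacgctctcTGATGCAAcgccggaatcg
TARS, chr5:33440956-33440985, plus strand: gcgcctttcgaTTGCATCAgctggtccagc
YARS2, chr12:32756076-32756105, minus strand: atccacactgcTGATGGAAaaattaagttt

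The match began 187 bases before the RefSeq start in *AARS*, 33 before it in *GARS* and 13 before it in *IARS*, and it lay at or just after the start in *NARS* and *TARS*. In all, 7 of the 16 cytosolic genes with a promoter held the letters, against 1 of 14 mitochondrial genes. Over all 27305 genes with a RefSeq promoter the share was 4.46%, and over all 35116 promoters it was 3.62%. A match is a description of letters and not a measured binding site. The core of the sites of NRF1, a factor known for control of nuclear genes of the mitochondrion, was in 3 of 16 cytosolic and 3 of 14 mitochondrial genes, against 6.98% of all genes.

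Expression is given as FPKM, fragments per kilobase of gene, scaled to the depth of the library, so that levels can be compared between genes. Whole reads could be recovered from these values, and they summed to 14317091 to 17084067 reads on genes per library. Each log2 fold change below is *RRM2*-OE-TPC-1 against wild strain TPC-1 on the log2(FPKM + 0.1) scale, fitted with limma over 13621 genes that passed a filter on low values (all 36 members passed), with Benjamini-Hochberg adjustment over all of them. A gene is said to have risen or fallen where its adjusted p was at most 0.05. It is called differentially expressed if its log2 fold change was also at least 1 in size. *RRM2* itself read 9.17, 9.05 and 8.52 FPKM in TPC-1 against 50.4, 47.5 and 47.2 FPKM in *RRM2*-OE-TPC-1, with transgene and endogenous reads summed. Replicate 1 of *RRM2*-OE-TPC-1 stood apart from the other two of its group, with a chi-square per gene of 5.02 and 5.68 against 1.81 between those. Without it, 6 cytosolic members rose and 11 fell as with it, and of the mitochondrial members 11 in place of 12 rose and 1 in place of 2 fell. The thyroid factor *PAX8* was expressed (69.3 ± 1.84 FPKM in TPC-1 against 58.5 ± 1.92 in *RRM2*-OE-TPC-1, SD, n = 3), but *NKX2-1* was listed at 0, and *TG*, *TSHR* and *SLC5A5* were near 0 in both groups. Leukocyte markers were at or near 0, with a sum over the 5 genes of at most 0.0355 FPKM in any library, whereas the sum of 5 epithelial markers was 41.9 to 45.8 FPKM in TPC-1 against 87.3 to 89.7 FPKM in *RRM2*-OE-TPC-1 (*EPCAM*, *KRT19* and *CDH1* were near 0). Sums of the fibroblast markers were 0.820 to 0.965 and 0.409 to 0.577 FPKM, mostly from *COL1A1* (means 0.816 and 0.501 FPKM). Those of the endothelial markers were 0.873 to 1.05 and 0.0667 to 0.115 FPKM. The endothelial difference came from *PECAM1* (means 0.924 and 0.0588 FPKM), while *VWF* went the other way near 0 (0.00577 and 0.0325 FPKM). The part of such shifts in the results was not tested. In bulk RNA, fewer cells of a type and less RNA per cell cannot be told apart.

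Most cytosolic members that changed fell, and most mitochondrial members that changed rose. Of the 20 cytosolic members, 11 fell, 6 rose and 3 did not pass the test. Of the 16 mitochondrial members, 12 rose, 2 fell and 2 did not pass. Over all tested genes, 34.9% rose and 32.7% fell. The median log2 fold change was −0.22 for the cytosolic members and 0.28 for the mitochondrial members, beside 0.01 for all tested genes. Only *AARS* and *WARS* among the 36 were differentially expressed, both lower, where 11.5% of all tested genes were called with 4.48% higher and 6.97% lower. Thus most of the changes were modest in size, but 31 of 36 members passed the test of a difference, beside 67.6% of all genes. In 31 members, 18 higher and 13 lower, the TPC-1 values lay wholly on one side of the *RRM2*-OE-TPC-1 values, beside 72.2% of all genes (37.3% higher and 35% lower). All of these counts describe the members and carry no test of the lists.

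**Figure D1:**
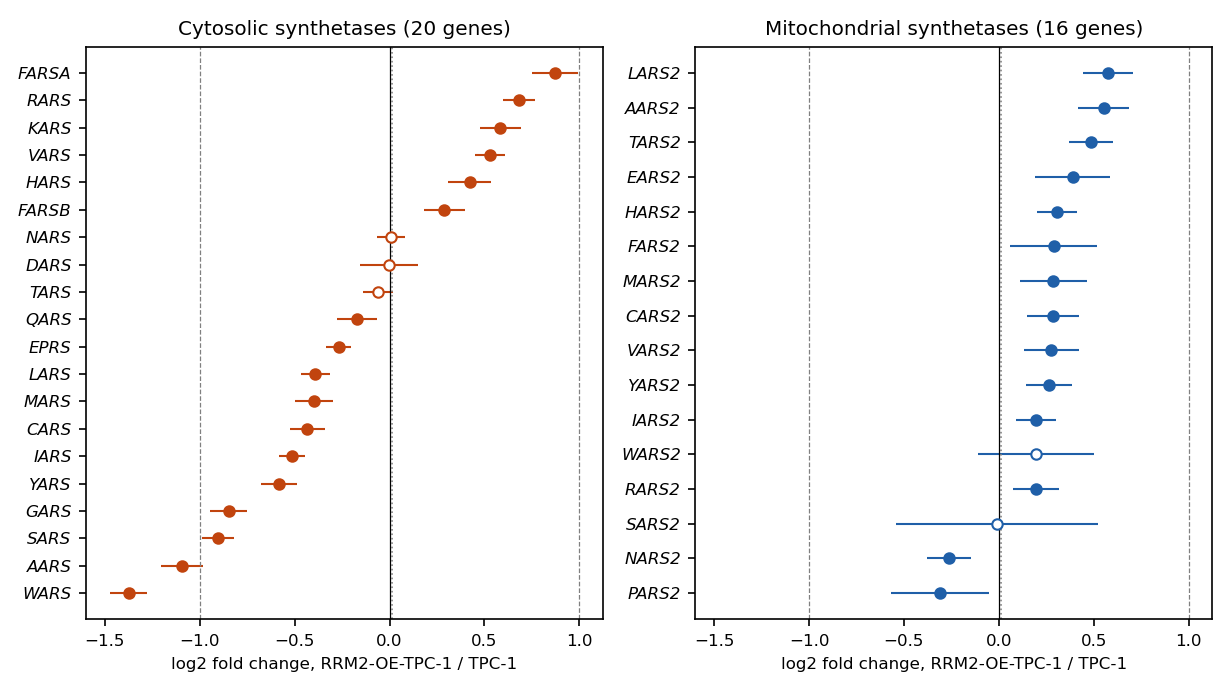
Log2 fold change (x axis, *RRM2*-OE-TPC-1 over TPC-1) of each cytosolic (left) and mitochondrial (right) synthetase, with 95% intervals from limma. Filled points passed an adjusted p of 0.05, dashed lines mark a log2 fold change of 1 in size and the dotted line the median of all tested genes. The cytosolic genes run from −1.38 for *WARS* to 0.87 for *FARSA*, while 12 filled mitochondrial points lie to the right of 0 and 2 to the left.

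*WARS*, the tryptophan enzyme, which interferon is also known to induce, fell the most. Its FPKM was 46.9, 45.4 and 45.3 in TPC-1 against 16.7, 18.4 and 17.8 in *RRM2*-OE-TPC-1. Every *RRM2*-OE-TPC-1 library was far below every TPC-1 library. Its level was 2.60-fold lower, a log2 fold change of −1.38 ± 0.04 (SE, adjusted p = 1.28e-07). The gene lies at chr14:100333788-100376805 on the minus strand of GRCh38. A share of 4.51% of its exon bases overlaps exons of *WDR25* on the opposite strand. Whether strand was used in counting is not stated, so reads in such stretches cannot be told apart. *WDR25* read only 1.33 FPKM on average.

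*AARS* encodes the alanine enzyme and was among the most abundant of the 36 messages in TPC-1, where its values overlapped those of *IARS*. It lies at chr16:70252295-70289543 on the minus strand. Its FPKM was 163.7, 145.0 and 157.1 in TPC-1 against 72.1, 74.6 and 70.9 in *RRM2*-OE-TPC-1. The level was thus 2.14-fold lower, with no overlap between the groups. The log2 fold change was −1.10 ± 0.05 (SE, adjusted p = 6.46e-07), with a 95% interval of −1.21 to −0.98, so that it lay close to the threshold of 1.

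*SARS* and *GARS*, the serine and glycine enzymes, came next and stayed under that threshold. *SARS* read 99.6, 92.5 and 96.0 FPKM in TPC-1 against 52.1, 50.6 and 51.0 FPKM in *RRM2*-OE-TPC-1, a log2 fold change of −0.90 ± 0.04 (SE, adjusted p = 4.07e-07). *GARS* read 130.7, 126.3 and 130.3 FPKM in TPC-1 against 76.1, 69.3 and 69.7 FPKM in *RRM2*-OE-TPC-1, a log2 fold change of −0.85 ± 0.04 (SE, adjusted p = 1.26e-06). In both genes the groups were wide apart. Together with *AARS* and *WARS* they carried most of the fall in the summed cytosolic level.

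The other 7 cytosolic genes that fell did so by less. *YARS*, the tyrosine enzyme, had a log2 fold change of −0.58 (50.2 ± 1.96 to 33.5 ± 1.12 FPKM, SD, n = 3). *IARS*, the isoleucine enzyme, had one of −0.51 (147.4 ± 1.24 to 103.2 ± 1.83 FPKM). *CARS*, for cysteine, had −0.43 and *MARS*, for methionine, −0.40. These 4 are all on the list of ATF4-responsive genes described below. *LARS*, the leucine enzyme and a sensor of leucine for mTORC1, had a log2 fold change of −0.39, and *EPRS*, which joins both glutamate and proline, had −0.27 (105.4 ± 1.40 to 87.4 ± 0.67 FPKM). *QARS*, for glutamine, had the smallest of these changes, −0.17 ± 0.05 (SE, adjusted p = 0.0097). The 3′ end of *MARS* overlaps *DDIT3* on the opposite strand over 5.05% of its exon bases, and *DDIT3* fell far more than *MARS* (below).

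The 6 cytosolic genes that rose follow. *FARSA*, the catalytic subunit of the phenylalanine enzyme, rose the most, from 27.3, 23.8 and 24.5 FPKM to 46.2, 45.3 and 46.8 FPKM. This was 1.83-fold, a log2 fold change of 0.87 ± 0.05 (SE, adjusted p = 2.92e-06), with every *RRM2*-OE-TPC-1 library above every TPC-1 library. Its partner subunit *FARSB* rose by a log2 fold change of 0.29 ± 0.05 (SE, 20.1 ± 1.06 to 24.6 ± 0.75 FPKM, SD, n = 3). Both subunits are needed for 1 enzyme, and the interval of *FARSB*, 0.18 to 0.40, does not reach that of *FARSA*, 0.75 to 0.99. *RARS*, the arginine enzyme, rose from 24.3 ± 0.74 to 39.1 ± 0.98 FPKM (log2 fold change 0.68). *KARS*, the lysine enzyme, rose from 34.2 ± 1.62 to 51.2 ± 2.22 FPKM (0.58). Of its exon bases 4.33% overlap *TERF2IP* (13.6 FPKM on average) on the opposite strand. *VARS*, for valine, rose from 28.7 ± 0.04 to 41.4 ± 1.25 FPKM (0.53) and *HARS*, for histidine, from 8.97 ± 0.45 to 12.05 ± 0.20 FPKM (0.42).

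The remaining cytosolic genes were *NARS*, *DARS* and *TARS*, for asparagine, aspartate and threonine. *NARS* read 90.1, 87.6 and 88.4 FPKM in TPC-1 against 91.7, 87.6 and 88.2 FPKM in *RRM2*-OE-TPC-1. *DARS* read 23.7, 23.5 and 22.5 FPKM in TPC-1 against 25.9, 22.4 and 21.6 FPKM in *RRM2*-OE-TPC-1. The groups overlapped in both genes. The 95% intervals of the log2 fold change were −0.07 to 0.08 for *NARS*, −0.15 to 0.15 for *DARS* and −0.14 to 0.02 for *TARS*, which bound any change without showing that there was none. *TARS* passed the test, at −0.12, where values were rescaled to library totals (limma, adjusted p = 0.013).

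**Figure D2:**
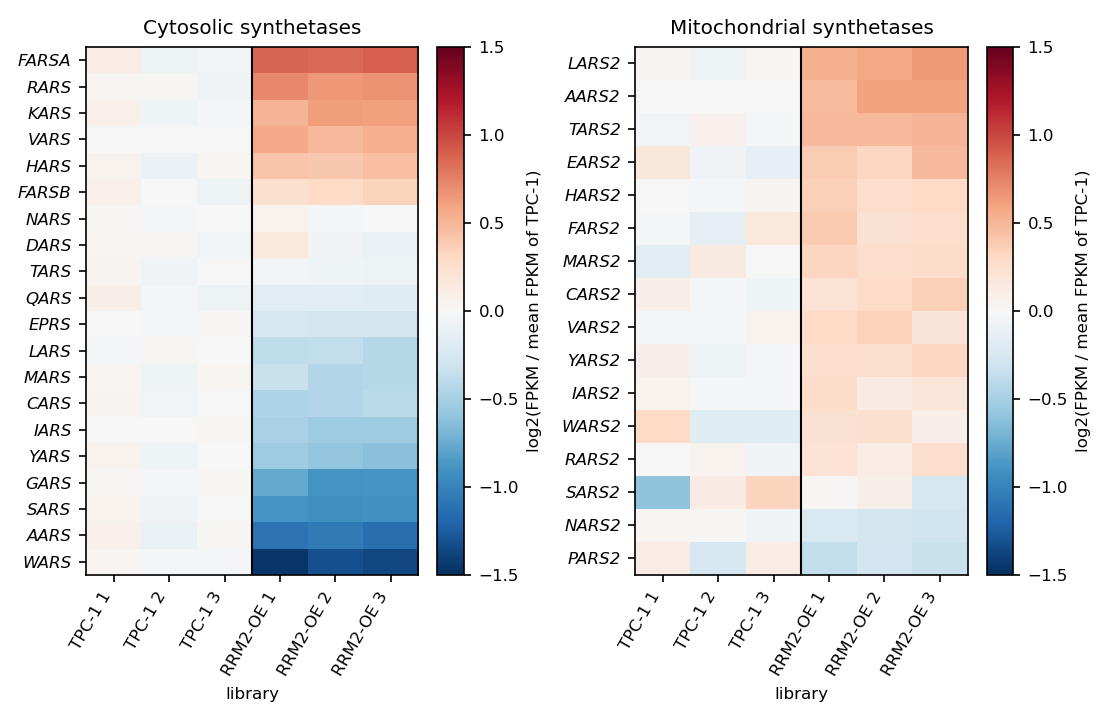
Colour gives log2 of FPKM over the mean FPKM of the 3 TPC-1 libraries, for each synthetase (rows) in each of the 6 libraries (columns), with red above and blue below that mean. The line separates the groups. Red fills most of the *RRM2*-OE side of the mitochondrial panel, whereas the cytosolic panel splits into 6 red rows at the top and blue rows below *TARS*, and *SARS2* differs among replicates of 1 group.

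Among mitochondrial members, *LARS2*, *AARS2* and *TARS2* rose the most, and these join leucine, alanine and threonine to mitochondrial tRNAs. *LARS2* read 5.16, 4.77 and 5.15 FPKM in TPC-1 against 7.28, 7.50 and 7.81 FPKM in *RRM2*-OE-TPC-1, a log2 fold change of 0.57 ± 0.06 (SE, adjusted p = 4.37e-05). *AARS2* read 4.28, 4.30 and 4.34 FPKM in TPC-1 against 6.00, 6.56 and 6.54 FPKM in *RRM2*-OE-TPC-1, a log2 fold change of 0.55 ± 0.06 (SE, adjusted p = 6.06e-05). *TARS2* read 5.93 ± 0.25 and 8.34 ± 0.10 FPKM (SD, n = 3), a log2 fold change of 0.49. In all 3 genes every *RRM2*-OE-TPC-1 library was above every TPC-1 library.

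The other 9 mitochondrial genes that rose had log2 fold changes from 0.20 to 0.39. These were *EARS2* for glutamate (0.39), which also charges the mitochondrial glutamine tRNA in its indirect route, *HARS2* for histidine (0.31), and *FARS2*, *MARS2*, *CARS2*, *VARS2* and *YARS2* for phenylalanine, methionine, cysteine, valine and tyrosine (0.29, 0.29, 0.29, 0.28 and 0.27). *IARS2* for isoleucine and *RARS2* for arginine had 0.20 each. *IARS2* was by far the most abundant mitochondrial member, at 55.9 ± 1.65 FPKM in TPC-1 against 64.1 ± 3.47 FPKM in *RRM2*-OE-TPC-1. *FARS2*, at 166 to 220 reads per library, had the weakest support of these (limma, adjusted p = 0.030), and it missed the threshold when TPC-1 replicate 1 (adjusted p = 0.071) or 2 (0.093), or *RRM2*-OE-TPC-1 replicate 1 (0.095) or 3 (0.055), was left out, as well as with no filter on low values (0.074) and with either scaling to library totals (0.072 and 0.065). In *VARS2*, 21.99% of the exon bases overlap *GTF2H4* on the same strand. In *HARS2* 11.7% overlap *HARS* on the opposite strand and 4.07% overlap *ZMAT2* (36.1 FPKM on average) on the same strand. In *EARS2* 6.46% overlap *UBFD1* (15.1 FPKM on average) on the opposite strand. The values of *VARS2*, *HARS2* and *EARS2* are therefore less certain.

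*NARS2* and *PARS2*, for asparagine and proline, were the mitochondrial genes that fell. *NARS2* read 7.51, 7.47 and 7.10 FPKM in TPC-1 against 6.30, 6.07 and 5.97 FPKM in *RRM2*-OE-TPC-1, a log2 fold change of −0.26 ± 0.05 (SE, adjusted p = 0.0019). *PARS2* read 2.63, 2.05 and 2.62 FPKM in TPC-1 against 1.89, 1.99 and 1.93 FPKM in *RRM2*-OE-TPC-1, a log2 fold change of −0.31 ± 0.11 (SE, limma adjusted p = 0.038) on 64 to 103 reads per library. The groups did not overlap in either gene, but TPC-1 replicate 2 of *PARS2* lay near the *RRM2*-OE-TPC-1 values. *PARS2* lost its call without any 1 library other than TPC-1 replicate 2, with adjusted p values of 0.066 to 0.12, and the count of mitochondrial genes that fell was then 1.

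*WARS2* and *SARS2*, for tryptophan and serine, did not pass. *WARS2* read 3.64, 2.61 and 2.61 FPKM in TPC-1 against 3.45, 3.51 and 3.13 FPKM in *RRM2*-OE-TPC-1 (log2 fold change 0.20, 95% interval −0.11 to 0.50). A single TPC-1 library, replicate 1, was above the rest of its group, and without it the log2 fold change was 0.35 and passed the test (limma, adjusted p = 0.010). *SARS2* was the lowest of all members, at 0.445, 0.736 and 0.855 FPKM in TPC-1 against 0.685, 0.723 and 0.563 FPKM in *RRM2*-OE-TPC-1. It rested on 24 to 44 reads per library, its interval ran from −0.54 to 0.53, and 46.18% of its exon bases overlap the same-strand gene *AC011455.2*, which was listed at 0 in every library. A change of *SARS2* within that interval was not detectable at this depth.

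The levels of the 36 genes spanned a wide range. In TPC-1 the order began with *AARS* (155.3 ± 9.49 FPKM, SD, n = 3), *IARS* (147.4 ± 1.24), *GARS* (129.1 ± 2.45), *EPRS* (105.4 ± 1.40) and *SARS* (96.0 ± 3.59). In *RRM2*-OE-TPC-1 it began with *IARS* (103.2 ± 1.83), *NARS* (89.1 ± 2.18), *EPRS* (87.4 ± 0.67), *AARS* (72.6 ± 1.89) and *GARS* (71.7 ± 3.82). There the values of *NARS* and *EPRS* overlapped, as did those of *AARS* and *GARS*, while every *AARS* value lay below every value of *IARS*, *NARS* and *EPRS*. Of the 35 pairs of neighbours in the TPC-1 order, 15 had overlapping values, among them *AARS* and *IARS*, *TARS* and *IARS2*, *MARS* and *WARS*, and *HARS2* and *HARS*. The order within such pairs cannot be read. The median level of the cytosolic genes was 42.4 FPKM in TPC-1 against 40.3 FPKM in *RRM2*-OE-TPC-1, and that of the mitochondrial genes was 5.11 and 6.54 FPKM.

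**Figure D3:**
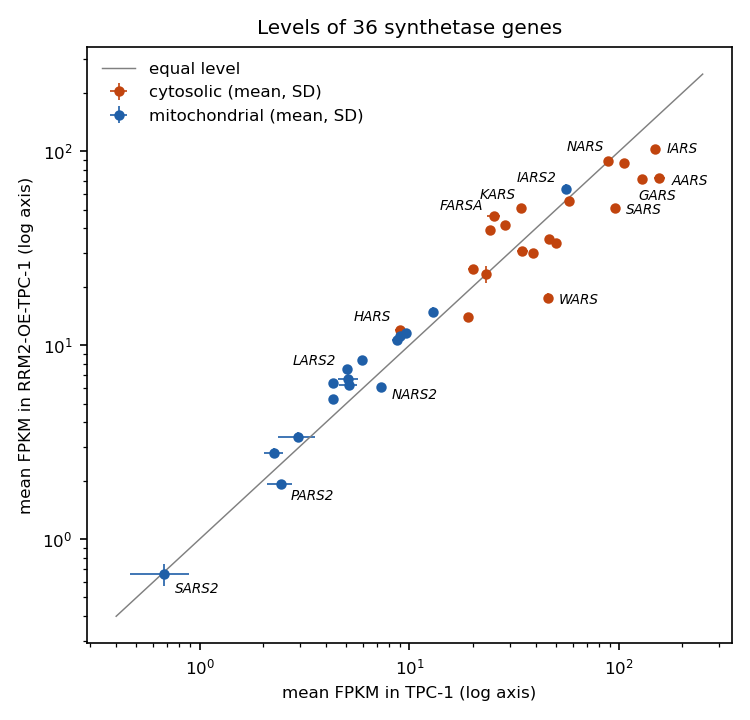
Mean FPKM of each synthetase in TPC-1 (x axis) and *RRM2*-OE-TPC-1 (y axis), both log axes, with bars of 1 SD over 3 libraries and the line of equal level. *AARS*, *GARS*, *SARS* and *WARS* lie clearly below the line among the abundant cytosolic genes, most mitochondrial points lie just above it, and *IARS2* sits among the cytosolic genes at 55.9 and 64.1 FPKM.

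Summed over the 20 genes, the cytosolic level was 1207, 1150 and 1181 FPKM in TPC-1 against 943.5, 922.5 and 920.5 FPKM in *RRM2*-OE-TPC-1. Summed over the 16 genes, the mitochondrial level was 145.5, 139.7 and 140.1 FPKM in TPC-1 against 171.5, 163.1 and 168.8 FPKM in *RRM2*-OE-TPC-1. The ratio of the sums was 8.32 ± 0.10 in TPC-1 against 5.54 ± 0.11 in *RRM2*-OE-TPC-1 (SD, n = 3), with no overlap between the groups. Without *AARS*, *GARS*, *SARS* and *WARS*, which were picked after their values were seen, the cytosolic sum was 752.9 ± 12.7 and 715.7 ± 9.31 FPKM. No test was made of these sums.

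For 13 amino acids a single cytosolic gene and a single mitochondrial gene form a pair, and the ratio of their levels was compared within each library. The ratio was lower in *RRM2*-OE-TPC-1 in 9 pairs and higher in 4, and in all 13 the groups did not overlap. Such separation was common, as 72.2% of all tested single genes had groups that did not overlap. The share over other pairs of genes was not computed. In an exact two-sided permutation test each pair gave p = 0.1, which is the smallest that 3 libraries against 3 allow, and p = 0.1 after Benjamini-Hochberg adjustment over the 13 pairs. With 3 libraries against 3 this test cannot reach 0.05 for any pair.

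*AARS* against *AARS2* differed the most. Its log2 ratio was 5.22, 5.04 and 5.15 in TPC-1 against 3.56, 3.49 and 3.42 in *RRM2*-OE-TPC-1. The arithmetic mean of the plain FPKM ratio, without the added 0.1, was 36.1 in TPC-1 against 11.4 in *RRM2*-OE-TPC-1. Both genes contributed, since *AARS* fell and *AARS2* rose. For tryptophan this mean ratio was 15.9 and 5.25. The difference in mean log2 ratio was −1.57 ± 0.15 (SE), which came mostly from *WARS*. The log2 difference was −0.97 ± 0.07 for leucine, −0.90 ± 0.28 for serine, −0.85 ± 0.05 for tyrosine and −0.72 ± 0.04 for cysteine. In leucine and cysteine, as in isoleucine (−0.71), methionine (−0.69) and tyrosine, the cytosolic gene fell while the mitochondrial gene rose. In threonine (−0.55) *TARS2* rose and *TARS* did not pass the test. The serine ratio has the largest SE, since it rests on the few reads of *SARS2*.

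The 4 pairs with a higher ratio were arginine (0.49 ± 0.05, SE), asparagine (0.27 ± 0.03), valine (0.25 ± 0.07) and histidine (0.11 ± 0.04). In arginine, valine and histidine both genes rose, the cytosolic one by more. In asparagine the mitochondrial *NARS2* fell and the interval of *NARS* was close around 0. The histidine pair is a divergent gene pair on chromosome 5, *HARS* at chr5:140673904-140691862 on the minus strand and *HARS2* at chr5:140691426-140699318 on the plus strand. Their exons share 437 bases, and their levels in TPC-1 were nearly equal (8.97 ± 0.45 and 9.03 ± 0.22 FPKM).

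**Figure D4:**
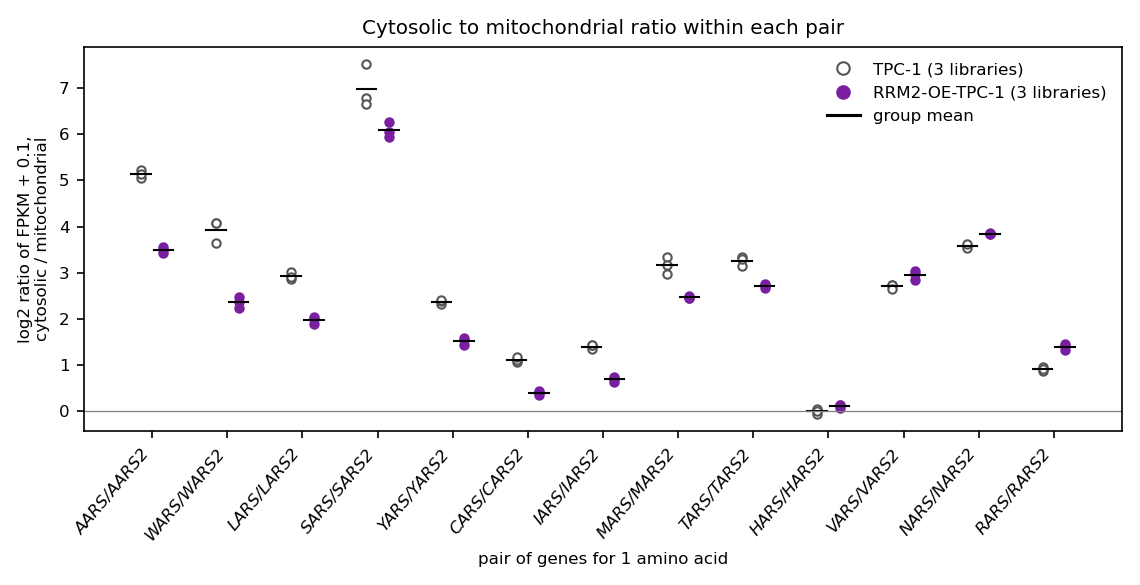
Log2 ratio of cytosolic to mitochondrial FPKM (each + 0.1) for 13 pairs, with TPC-1 libraries as open circles, *RRM2*-OE-TPC-1 libraries as filled circles and group means as bars. From *AARS*/*AARS2* to *TARS*/*TARS2* every filled circle is below the open ones, and in the last 4 pairs on the right every filled circle is above them.

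Both genes that serve the 2 compartments changed, in opposite directions: *GARS* fell (−0.85) and *KARS* rose (0.58). By known structure, 2 of the 8 synthetases of the multisynthetase complex rose (*RARS* and *KARS*), 5 fell (*EPRS*, *IARS*, *LARS*, *MARS* and *QARS*) and *DARS* did not pass. Of the 12 cytosolic genes outside the complex, 4 rose, 6 fell and 2 did not pass, and the median log2 fold changes were −0.22 inside and −0.25 outside. The scaffold protein genes of the complex gave 0.57 for *AIMP2*, which rose, and 0.11 and 0.01 for *AIMP1* and *EEF1E1*, which did not pass. By catalytic fold, class I enzymes had 2 genes that rose and 7 that fell of 9 (median −0.40), and class II enzymes had 4 that rose, 3 that fell and 3 that did not pass of 10 (median 0.00). *EPRS* holds both folds and was in neither list. Beside these counts by complex and by fold, 34.9% of all tested genes rose and 32.7% fell.

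A list of 13 cytosolic synthetases known to respond to ATF4 held *AARS*, *CARS*, *EPRS*, *GARS*, *IARS*, *LARS*, *MARS*, *NARS*, *SARS*, *TARS*, *VARS*, *WARS* and *YARS*. Of these, 10 fell, *VARS* rose and *NARS* and *TARS* did not pass, with a median of −0.43. Of the other 7 cytosolic genes 5 rose, *QARS* fell and *DARS* did not pass, with a median of 0.42. Among all tested genes, 34.9% rose and 32.7% fell. The letters TGATGNAA shown at the start were found in 7 of the 10 listed genes with a promoter, and 5 of these fell. *NARS* and *TARS* held the same 8 letters as *AARS*, *CARS*, *IARS* and *MARS*, and they did not pass. *SARS*, *WARS* and *EPRS* fell with no such letters in the window, which says only that they are not within those bases. *YARS2*, the mitochondrial gene with the letters, rose.

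Genes of the pathway that leads to ATF4 gave mixed directions. *ATF4* itself read 263.2, 249.0 and 257.3 FPKM in TPC-1 against 219.4, 213.4 and 208.1 FPKM in *RRM2*-OE-TPC-1, a log2 fold change of −0.26 ± 0.04 (SE, adjusted p = 3.80e-04). ATF4 is controlled largely in translation, which was not measured. *EIF2AK4*, the kinase GCN2 that senses uncharged tRNA, rose by a log2 fold change of 0.50 ± 0.06 (SE). *DDIT3*, which encodes CHOP, fell by 1.85 on the log2 scale (23.4 ± 1.73 to 6.42 ± 0.30 FPKM, SD, n = 3). In the list of 11 genes of the integrated stress response 4 rose, 4 fell and 3 did not pass. These counts stand beside 34.9% of all tested genes that rose and 32.7% that fell. *EIF2S1*, the alpha subunit of the factor that the kinases phosphorylate, rose (0.46), as did the GCN2 partner *GCN1* (0.46).

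Most ATF4 targets outside the synthetases fell. Of 18 listed genes 13 fell, 1 rose and 4 did not pass, and the median was −1.06. Of these 18, 9 were differentially expressed, all lower. Among all tested genes, 32.7% fell, 34.9% rose and 6.97% were differentially expressed and lower. *DDIT4*, an inhibitor of mTORC1, read 297.0 ± 22.0 FPKM in TPC-1 against 28.3 ± 1.53 FPKM in *RRM2*-OE-TPC-1 (SD, n = 3), a log2 fold change of −3.39 ± 0.06 (SE). *CHAC1*, which degrades glutathione, had −2.63, *ASNS*, asparagine synthetase, −1.99 and *TRIB3*, a pseudokinase that restrains ATF4, −1.94. *ASNS* makes the substrate of *NARS*, whose own message stayed within −0.07 to 0.08. Both ATF4 lists were written with results of these data known, so their direction is not independent evidence.

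**Figure D5:**
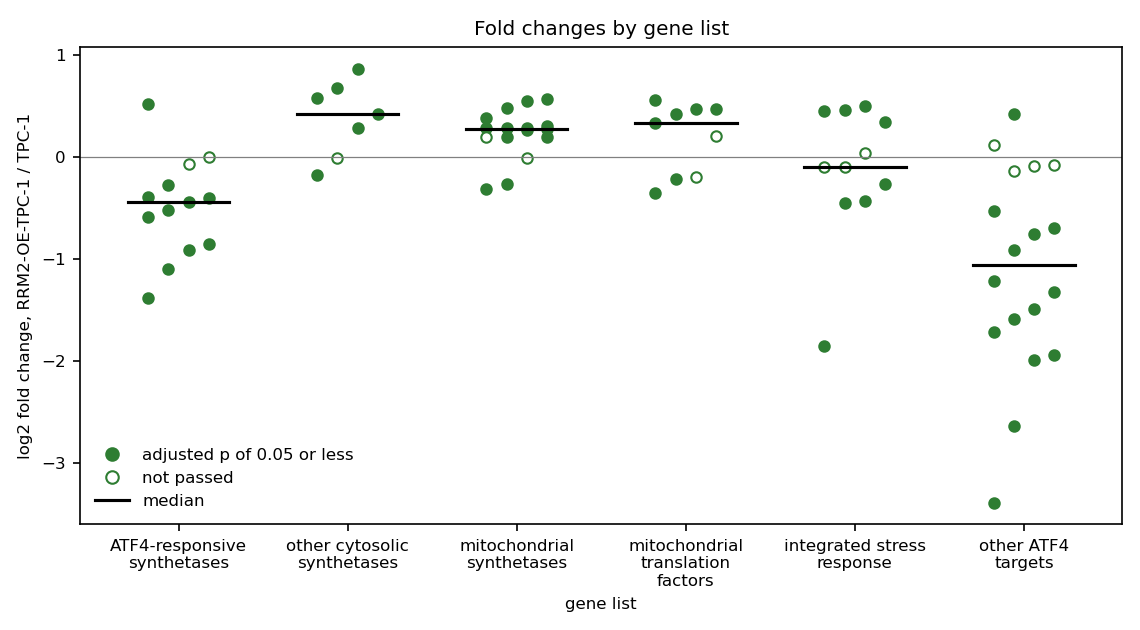
Log2 fold change (y axis, *RRM2*-OE-TPC-1 over TPC-1) of each tested gene in 6 gene lists, filled where the adjusted p was 0.05 or less, with the median as a bar. The medians are −0.43 for ATF4-responsive synthetases, 0.42 for the other cytosolic ones and 0.28 for the mitochondrial ones, beside −1.06 for the other ATF4 targets.

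Genes that work next to the synthetases were read from the same lists. In mitochondrial translation 5 of 9 factors rose, beside 34.9% of all tested genes, and 2 fell, beside 32.7%. The other 2 did not pass, and the median of the 9 was 0.34. The largest of these changes were those of *GFM2* (0.56), which acts in the recycling of mitochondrial ribosomes, and of the elongation factors *TSFM* (0.48), *TUFM* (0.48) and *GFM1* (0.43). *MTFMT*, which formylates the initiator methionyl-tRNA of mitochondria, rose (0.58, 2.48 ± 0.19 to 3.75 ± 0.32 FPKM, SD, n = 3). The genes of the indirect glutamine route, *QRSL1*, *GATB* and *GATC*, did not pass, with log2 fold changes of −0.19, 0.13 and −0.12. *EARS2*, which supplies that route, rose as given above.

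In the cytosol, the elongation factor genes *EEF1D* and *EEF1B2* rose (0.47 and 0.16), and *EEF2* and *EEF1A1* fell (−0.25 and −0.23). *EEF1G* was listed at 0 in every library, with 99.93% of its exon bases shared with the same-strand gene *AP002990.1*. *XPOT*, which exports tRNAs from the nucleus, fell (50.1 ± 0.72 to 34.8 ± 0.67 FPKM, SD, n = 3, log2 fold change −0.52), and *TRNT1*, which adds the CCA end, did not pass (−0.10). Among enzymes that clear mischarged tRNAs, *DTD1* fell (−0.25), and *DTD2* (−0.04) and *AARSD1* (−0.27) did not pass.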

How the data were processed

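mRNA of 3 wild strain TPC-1 and 3 *RRM2*-OE-TPC-1 libraries was sequenced in paired ends, described as biological triplicates. The labels describe removal of ribosomal RNA and digestion with RNase R, whereas the methods describe poly(A) selection. The deposited values are FPKM, which the authors made by cleaning reads (fastp), aligning (HISAT2) and counting per gene (featureCounts), then dividing by gene length and sequencing depth. The submitters' processing notes list HISAT2 2.0.5, featureCounts 1.5.0, DESeq2 1.20.0 and GRCh38.p14. Strand use in counting is not given in the sources used here. Gene positions are those of GENCODE 29 on GRCh38 for 58724 of 58735 genes.

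FPKM times gene length gave whole reads (100% of values, within 0.05 of a read). Values were analysed as log2(FPKM + 0.1) with limma 3.58.1 in R 4.3.3 (lmFit and eBayes with a variance trend, Benjamini-Hochberg adjustment). A gene entered if 3 or more libraries each had both 0.5 FPKM or more and 10 reads or more. Tables used Python 3.11.15 with scipy 1.17.1. On simulated data with 200 changed genes, 99.0% of the 198 tested ones were called, with 0 false calls over 13537 genes by adjusted p and fold and 10 by adjusted p alone. With no gene changed, 1 gene was called. Recovery of log2 fold changes under 1 in size, such as those of most members, was not tested. No pair of replicates agreed within sampling noise (chi-square per gene 1.81 to 5.68).

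The members and gene lists were chosen with earlier results of these data known. The text names all 36 members, *RRM2*, *ATF4*, *EIF2AK4*, cell type markers, genes whose exons overlap a member's, and up to 4 genes with the largest change from each neighbouring list, besides list members given for completeness. Alternatives were no filter, pseudocounts of 1 and 0.01, 3 other scalings, a replicate block, voom on recovered reads and leaving out each library.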

Additional observations from a re-analysis of the deposited data

How the results depend on the processing

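Over 14 alternatives, 474 of 504 member values kept direction and side of the threshold, and 29 of 36 members did so throughout. Pair ratios were recomputed under 9 of these, and none of 117 values reversed. *AARS* and *WARS* were the differentially expressed cytosolic members without any 1 library. With a pseudocount of 1, differentially expressed genes fell from 1560 to 716. Mitochondrial genes that fell numbered 1 with no filter, the replicate block and voom, and 1 to 2 with a library left out. Scaling to library totals, with or without the mitochondrial genome, moved the median of all genes to −0.05, of cytosolic members to −0.28 and of mitochondrial members to 0.22. The latter was 0.24 with a pseudocount of 1 and 0.25 to 0.29 with a library left out.

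Reversals concerned genes that did not pass. With a library left out, *DARS* ran from −0.080 to 0.049, *NARS* from −0.013 to 0.019 and *SARS2* from −0.24 to 0.16. *NARS* was −0.051 under both total scalings, and *SARS2* 0.0049 with voom. The cause was not tested. Replicate numbers did not pair the samples (correlations −0.01, −0.01 and −0.06). With the replicate block 1566 genes were differentially expressed, and *PARS2* lost its call (adjusted p = 0.060, limma). *FARS2* lost its call with no filter and under both total scalings, where 11 mitochondrial genes rose. The fewest reads per library were those of *SARS2* (24 to 44) and *PARS2* (64 to 103).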
